A study of Mus musculus with 12 samples.

Results

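The insulin-like growth factor (IGF) family was followed as 10 named genes: the ligands Igf1 and Igf2, the receptors Igf1r and Igf2r, and the binding proteins Igfbp2, Igfbp3, Igfbp4, Igfbp5, Igfbp6 and Igfbp7. The genes were chosen by symbol, from 55291 symbols counted in every library. All 10 had enough counts to be tested, among 18147 genes that did. The study compared mouse cells sorted as VE-cadherin-positive endothelium, per the labels, in 4 groups of 3 libraries. BM-AML was bone marrow and Lung-AML was lung of mice that had received acute myeloid leukaemia (AML) cells of genotype Trp53(R172H/Δ), meaning 1 mutant and 1 lost copy of this tumour suppressor. BM-Ctrl and Lung-Ctrl were the same tissues of mice given no transplant. All 4 groups came from VECadCre-tdTomato mice, in which, going by the name of the line, a Cre recombinase under control of the VE-cadherin promoter is combined with a red fluorescent reporter. Age, conditioning before transplantation and time after it could not be read from the labels, and neither could which blood cells the hosts retained.

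IGF1 and IGF2 are small peptides that act mainly through the IGF1 receptor, a tyrosine kinase that signals to phosphoinositide 3-kinase and Akt. The IGF2 receptor, also a mannose 6-phosphate receptor, binds IGF2 and takes it up for degradation. Secreted binding proteins hold most IGF outside cells, lengthen its life and keep it from the receptor until proteases cut them. In marrow and lung, stromal cells and vessel walls are known sources of several binding proteins.

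For the binding proteins Igfbp3, Igfbp4 and Igfbp7, the AML effect differed between marrow and lung in the edgeR test described below. They were 3 of the 10 genes, 30% against 30.7% of all genes tested, so the family was near the share of all genes. The difference for Igfbp3 was not called under every alternative. Their upstream sequences are therefore shown, chosen after the values were seen. Each line gives the 250 bases before the annotated transcription start, 5′ to 3′ on the gene's own strand, from RefSeq on GRCm38.p6. Capitals mark matches, on either strand, to 3 motifs. The first is the core of a hypoxia response element, ACGTG. The next is a GC box, with the letters GGGCGG. The last is a TATA box, which was searched as TATAAA.
Igfbp3, chr11:7213924-7214173, minus strand: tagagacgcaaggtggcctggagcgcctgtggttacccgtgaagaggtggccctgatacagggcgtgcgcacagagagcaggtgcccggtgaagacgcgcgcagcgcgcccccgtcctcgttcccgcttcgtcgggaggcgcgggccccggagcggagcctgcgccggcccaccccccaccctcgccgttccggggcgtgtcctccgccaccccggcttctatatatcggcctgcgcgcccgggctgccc
Igfbp4, chr11:99040994-99041243, plus strand: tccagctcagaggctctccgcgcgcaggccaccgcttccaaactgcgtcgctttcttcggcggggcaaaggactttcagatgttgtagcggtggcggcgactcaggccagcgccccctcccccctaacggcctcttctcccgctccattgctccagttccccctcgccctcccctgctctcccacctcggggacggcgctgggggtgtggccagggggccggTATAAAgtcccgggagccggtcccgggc
Igfbp7, chr5:77408046-77408295, minus strand: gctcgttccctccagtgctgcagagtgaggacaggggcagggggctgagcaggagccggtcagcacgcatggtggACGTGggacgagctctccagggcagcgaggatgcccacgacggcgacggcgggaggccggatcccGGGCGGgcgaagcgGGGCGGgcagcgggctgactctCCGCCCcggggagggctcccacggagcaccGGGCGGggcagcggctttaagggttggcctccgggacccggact
Igfbp3 held none of the 3 motifs, Igfbp4 held TATAAA beginning 28 bases before the start, and Igfbp7 held ACGTG beginning 175 bases before it and 4 GC boxes. Of 32851 RefSeq promoter windows of 300 bases (250 before and 50 after a start), 19.6% held ACGTG, 35.7% held GGGCGG and 13.6% held TATAAA. None of the 3 motifs overlapped another in these lines. Such matches are letters in a window and show neither binding nor its absence.

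The genes lie on 7 chromosomes of GRCm38. Igfbp3 spans chr11:7206086-7213923 on the minus strand and Igfbp4 spans chr11:99041244-99054392 on the plus strand. Igfbp7 spans chr5:77349240-77408041 on the minus strand. Igfbp2, at chr1:72824503-72852474 on the plus strand, is the neighbour of Igfbp5, at chr1:72857932-72874884 on the minus strand. Igfbp6 lies at chr15:102144362-102149511, Igf1 at chr10:87858265-87937042 and Igf1r at chr7:67952827-68233668, all on the plus strand. Igf2, at chr7:142650766-142666816, and Igf2r, at chr17:12682406-12769664, are on the minus strand. Counting ignored strand. Of the exon bases of Igf2, 64.55% also belong to other annotated genes, so its counts are uncertain. Igf2 shares 3596 exon bases with Gm49394, on the same strand, and 98 with the antisense Igf2os. Gm49394 had 0 counts in all libraries, and Igf2os had 0 to 3 counts per library. The counter was not given, so how it treated reads in shared bases is not known, and Igf2 may be undercounted. Igfbp7 shares 85 exon bases with Polr2b on the other strand.

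Libraries held 12.8 to 39.2 M counts, and levels are given as CPM, counts per M counts after TMM scaling. The labels do not state that replicates were separate mice, so p-values measure the spread between these libraries, which may be technical. Cdh5, the gene of VE-cadherin on which the sort was based, averaged 0.633 ± 0.290 CPM in BM-AML, 4.91 ± 1.51 in BM-Ctrl, 15.9 ± 14.4 in Lung-AML and 188 ± 142 in Lung-Ctrl (SD, n = 3 each). Markers of other cells were high, with alveolar type 2 genes at 233318 to 269594 CPM in Lung-AML and 169103 to 210057 CPM in Lung-Ctrl. The results below are therefore levels in these libraries, and the cells that made the transcripts were not identified. In such bulk RNA, fewer cells of a type and less RNA per cell cannot be told apart. BM-AML library 3 stood apart from the other BM-AML libraries in several members. Where a member's call or direction changed without it, that is noted beside the result.

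**Figure D1:**
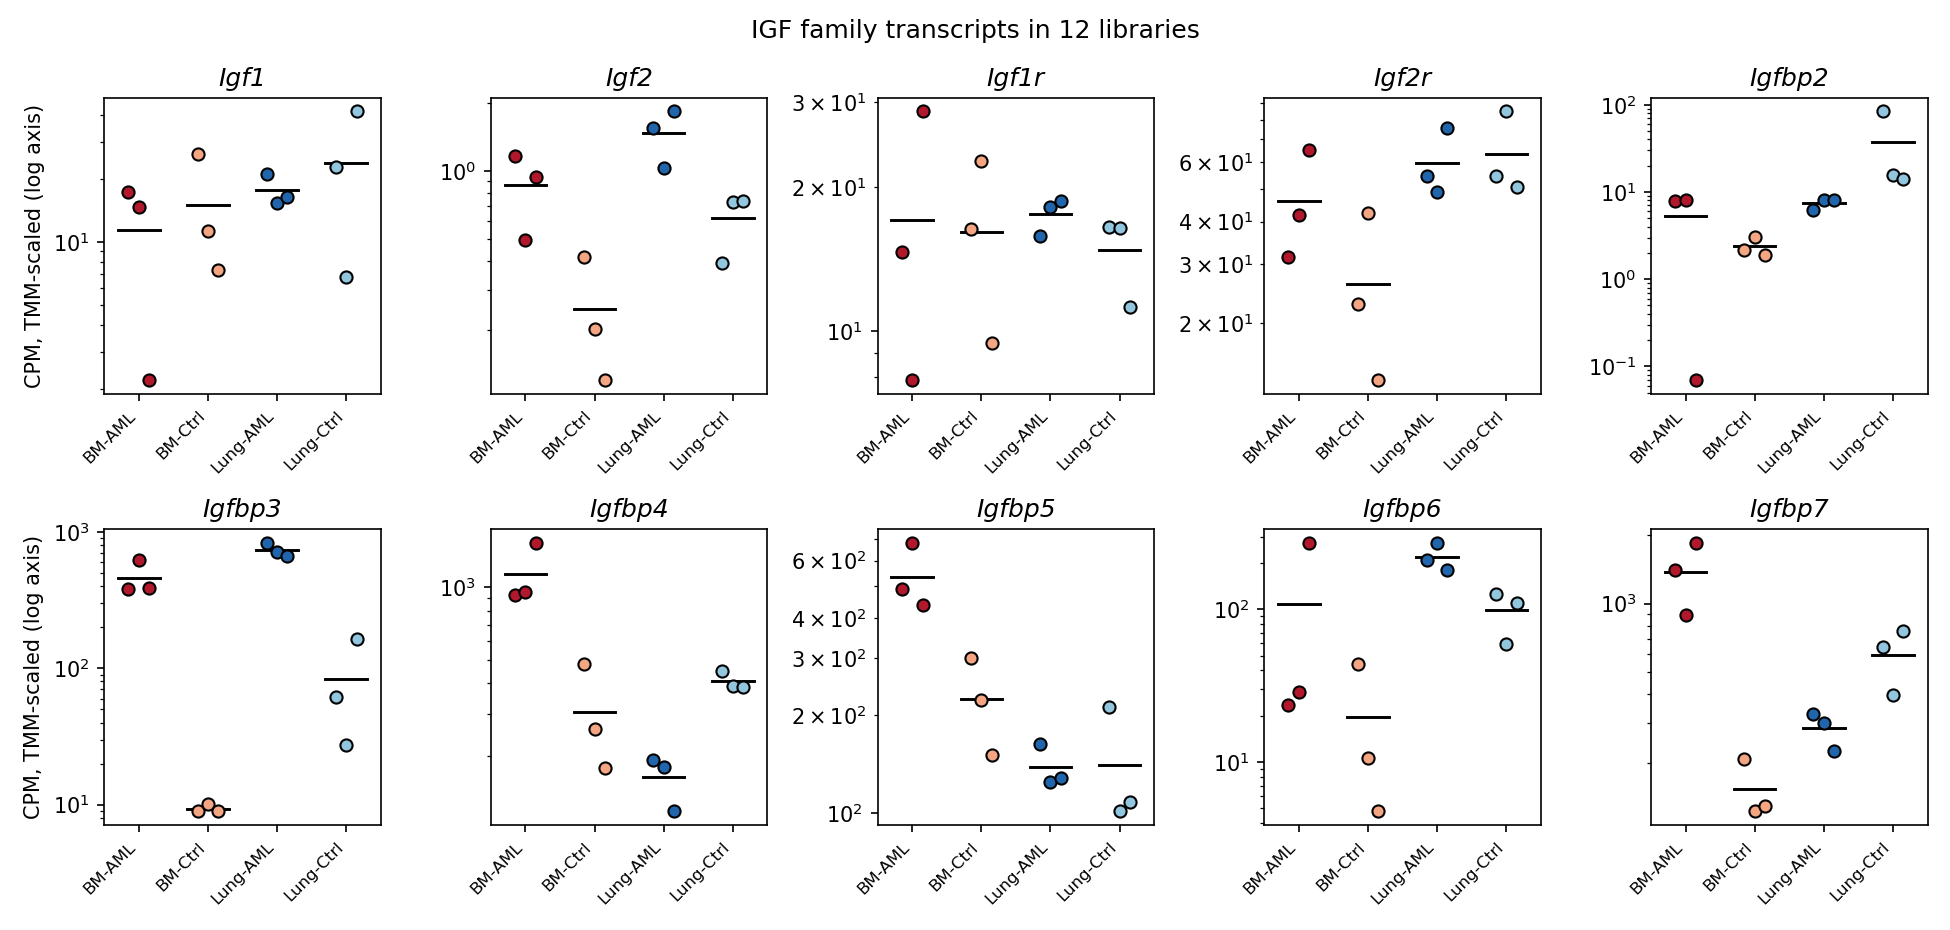
Level of each IGF family gene in the 12 libraries. The vertical log axes give TMM-scaled CPM, points are libraries, black bars are the means of 3 libraries, and the axes differ between genes. Igfbp3 was high in all 6 AML libraries, and Igfbp4, Igfbp5 and Igfbp7 were highest in BM-AML.

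Binding proteins made up most of the family's transcripts in every group once levels were divided by exon length. Igfbp7 led in BM-AML with 1141 ± 397 CPM per kb (SD, n = 3), in BM-Ctrl with 127 ± 39.3 and in Lung-Ctrl with 495 ± 151. In Lung-AML it stood at 235 ± 43.0 CPM per kb beside Igfbp3 at 236 ± 27.5 CPM per kb, a difference within the spread. Igf2 was the lowest of the 10 genes in every group, between 0.0430 ± 0.0270 CPM per kb in BM-Ctrl and 0.256 ± 0.0712 in Lung-AML. These Igf2 levels used the full exon length and carry the uncertainty of its shared exons given above. Igf1 reached at most 2.40 ± 1.77 CPM per kb, in Lung-Ctrl, and Igf1r at most 1.05 ± 0.0912, in Lung-AML. Igf2r lay between ligands and most binding proteins, at 4.96 ± 1.85 CPM per kb in BM-AML, 2.82 ± 1.58 in BM-Ctrl, 6.41 ± 1.51 in Lung-AML and 6.80 ± 2.002 in Lung-Ctrl. Both ligands were below Igfbp4, Igfbp5, Igfbp6 and Igfbp7 in each of the 12 libraries, while Igf1 was above Igfbp2 in BM-AML library 3 (0.222 against 0.0378 CPM per kb) and in BM-Ctrl library 1 (2.64 against 1.16 CPM per kb). IGF peptides made elsewhere, such as the IGF1 of the liver, are outside what these libraries measure.

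The first comparison asked what AML changed in the marrow libraries. Of the 10 genes, 5 passed an adjusted p of 0.05 in the edgeR quasi-likelihood test as higher in BM-AML and 0 as lower, with 5 not past it. Of all 18147 genes tested, 20.4% were called higher and 23.5% lower, 43.8% in all. The median log2 fold change was 1.51 over the 10 genes and -0.11 over all genes tested. By count, 3694 genes were higher and 4263 lower. Scaling by library totals alone gave 4645 higher and 2946 lower and moved that median of all genes to 0.16, and under it no called member changed direction.

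Igfbp3, the main carrier of IGF in blood, had the largest change. It stood at 381, 621 and 385 CPM in BM-AML libraries 1, 2 and 3, against 8.93, 10.04 and 8.92 CPM in the BM-Ctrl libraries. Every BM-AML library lay far above all 3 controls, and the controls differed little among themselves. The log2 fold change was 5.63 ± 0.59 (SE), 49.7-fold by the fit, with an adjusted p of 4.84e-05 in edgeR.

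Igfbp7 binds IGF more weakly than the others and is known from vessel walls and basement membranes. Its level was 1402, 889 and 1848 CPM in BM-AML, against 208, 123.1 and 129 CPM in BM-Ctrl. The groups did not overlap, and the log2 fold change was 3.17 ± 0.35 (edgeR adjusted p = 6.67e-05).

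Igfbp4, which inhibits IGF action and is cut by the protease Pappa, had 932, 955 and 1530 CPM in BM-AML, against 480, 258 and 179 CPM in BM-Ctrl. BM-AML library 3 was the highest and the groups did not overlap (log2 fold change 1.90 ± 0.35, edgeR adjusted p = 0.0013). Igfbp5, a binding protein that also attaches to matrix and bone mineral, had 489, 682 and 437 CPM in BM-AML, against 301, 224 and 151 CPM in BM-Ctrl. These groups also stayed apart, by a smaller margin (log2 fold change 1.25 ± 0.33, edgeR adjusted p = 0.00964).

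Igf2, the fetal growth factor, was called higher from very few reads. It had 18, 13 and 27 counts in BM-AML libraries, against 9, 4 and 2 counts in BM-Ctrl libraries, or 1.16, 0.496 and 0.941 CPM against 0.418, 0.201 and 0.120 CPM. The groups did not overlap, but BM-AML library 2 was close to BM-Ctrl library 1. The log2 fold change was 1.77 ± 0.66 with an edgeR adjusted p of 0.0466. The call was lost when any 1 of 10 libraries was left out, with log2 fold changes of 1.45 to 2.38 over all 12 omissions and adjusted p up to 0.142. Only the omission of BM-Ctrl library 1 or BM-AML library 2 kept it.

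The other 5 genes did not pass the test in marrow. Igfbp6, which prefers IGF2, had 23.6, 29.0 and 273 CPM in BM-AML, against 44.3, 10.7 and 4.79 CPM in BM-Ctrl. The value rested on library 3: the log2 fold change was 2.44 ± 0.96 (edgeR adjusted p = 0.0595) with it and 0.39 (adjusted p = 0.675) without it. With library 3 kept, Igfbp6 was called higher without BM-AML library 1 or 2 or BM-Ctrl library 1 (2.89 to 3.81, adjusted p of 0.019 to 0.0338), and in 3 other alternatives. Igfbp2, another secreted binding protein, had 7.96 and 8.05 CPM in BM-AML libraries 1 and 2 and 2 counts, 0.0697 CPM, in library 3, against 2.14, 3.06 and 1.92 CPM in BM-Ctrl. Its log2 fold change was 1.17 ± 1.06 (edgeR adjusted p = 0.396) with library 3 and 1.75 (adjusted p = 0.0557) without it.

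Igf1, the main ligand after birth, was also lowest in library 3, with 17.2, 14.7 and 2.20 CPM in BM-AML, against 26.1, 11.2 and 7.36 CPM in BM-Ctrl (log2 fold change -0.40 ± 0.75, edgeR adjusted p = 0.699). The groups overlapped widely. Igf1r, the signalling receptor, was highest in that library, with 14.6, 7.90 and 28.7 CPM in BM-AML, against 16.3, 22.6 and 9.46 CPM in BM-Ctrl (log2 fold change 0.08 ± 0.44, edgeR adjusted p = 0.904). For both, leaving out library 3 turned the sign, to 0.09 for Igf1 and -0.52 for Igf1r, with neither past the test. Igf2r had 31.5, 41.8 and 65.1 CPM in BM-AML, against 22.8, 42.3 and 13.6 CPM in BM-Ctrl. Its groups overlapped through BM-Ctrl library 2 (log2 fold change 0.82 ± 0.40, edgeR adjusted p = 0.123), and it was called higher without that library (1.34, adjusted p = 0.0231), with library totals alone (1.14, 0.0365) and with a filter of 5 CPM in 3 libraries (1.05, 0.0414).

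Markers of other cells moved with these results in marrow, where 20.4% of all genes tested were called higher and 23.5% lower. Pericyte and smooth muscle genes, 12 in the list, summed to 2601 to 9635 CPM in BM-AML and 216 to 701 CPM in BM-Ctrl, and 10 of the 12 were called higher. BM-AML library 3 held the highest pericyte sum, 9635 CPM, and the highest fibroblast sum, 11819 CPM. Erythroid genes summed to 462 to 2843 CPM in BM-AML and 14992 to 17326 CPM in BM-Ctrl, with 13 of 14 called lower. Fibroblast genes summed to 3255 to 11819 CPM in BM-AML and 975 to 3140 CPM in BM-Ctrl, with 2 of 12 called higher and 1 lower. Reticular and osteolineage genes overlapped between the groups, at 12722 to 22457 CPM in BM-AML and 15740 to 21468 CPM in BM-Ctrl, with 6 of 15 called higher and 4 lower. Pan-leukocyte genes summed to 557 to 685 CPM in BM-AML and 137 to 179 CPM in BM-Ctrl, with 7 of 10 called higher and 1 lower. Ptprc, a gene of this list, went against the sum, with means of 1.77 CPM in BM-AML and 5.197 CPM in BM-Ctrl. Its libraries overlapped and it was not called (log2 fold change -1.53 ± 0.96, edgeR adjusted p = 0.219). Without BM-AML library 2, Ptprc was called lower (-5.01, edgeR adjusted p = 0.000236). The 20 pan-endothelial genes summed to 217 to 271 CPM in BM-AML and 265 to 418 CPM in BM-Ctrl, with 1 called higher and 9 lower. Of these, Cdh5 was called lower (-2.90 ± 0.82, edgeR adjusted p = 0.0141), but not with limma-voom (adjusted p = 0.508). Pecam1 was not called (-1.55 ± 0.80, edgeR adjusted p = 0.139), but was without BM-AML library 3 (-2.74, adjusted p = 0.0246) and with a replicate block (0.0463). No marker of the endothelial, pericyte, leukocyte or erythroid lists was at 0 in all 3 libraries of a marrow group. The part of these shifts in the binding protein levels was not tested.

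**Figure D2:**
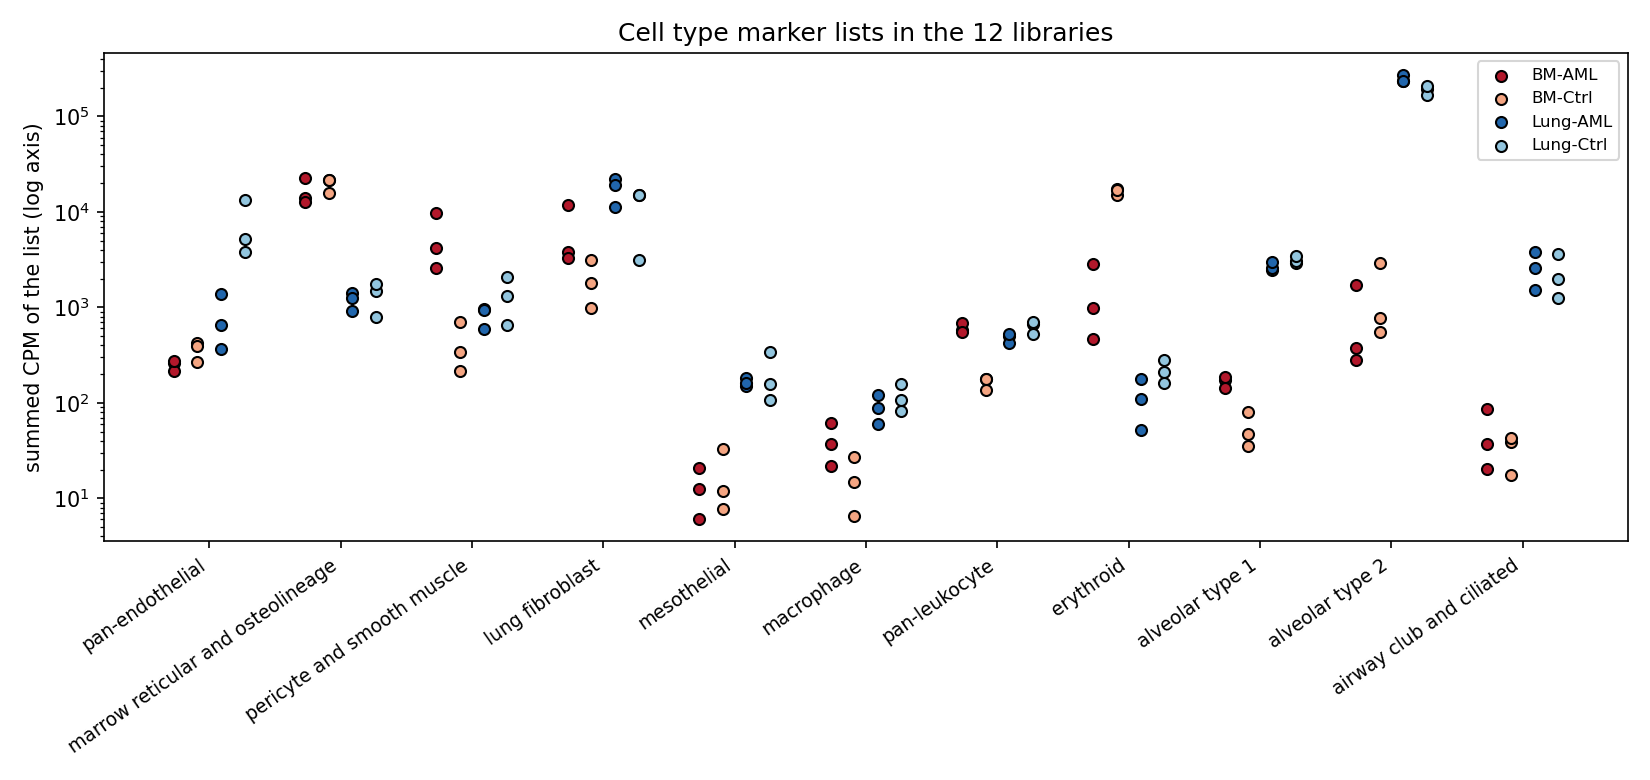
Summed level of each cell type marker list per library. The vertical log axis gives summed TMM-scaled CPM, and points are libraries, coloured by group. The pericyte and smooth muscle list was higher in BM-AML (2601 to 9635 CPM) than in BM-Ctrl (216 to 701 CPM), and alveolar type 2 genes were at 169103 CPM or more in every lung library.

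The second comparison asked the same of the lung. Of the 10 genes, 1 passed the test, Igfbp3, which was higher in Lung-AML. Of all genes tested, 1.17% were called higher and 1.16% lower, 2.33% in all. The median log2 fold change was -0.05 over the 10 genes and 0.00 over all genes tested.

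Igfbp3 had 835, 716 and 667 CPM in Lung-AML, against 61.0, 27.4 and 164 CPM in Lung-Ctrl. All 3 Lung-AML libraries were close together and above every control, while the controls were spread widely. The log2 fold change was 3.14 ± 0.52, 8.80-fold by the fit, with an edgeR adjusted p of 0.0138. Leaving out Lung-Ctrl library 1 gave 2.91 (adjusted p = 0.0618) and leaving out Lung-AML library 1 gave 3.04 (adjusted p = 0.0586), so each of those libraries was needed for the call.

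Igfbp4 and Igfbp7 were below their controls in lung without passing the test. Igfbp4 had 193, 179 and 118 CPM in Lung-AML, against 451, 389 and 387 CPM in Lung-Ctrl, and the groups did not overlap (log2 fold change -1.32 ± 0.34, edgeR adjusted p = 0.0735). Igfbp7 had 327, 300 and 227 CPM in Lung-AML, against 643, 398 and 755 CPM in Lung-Ctrl, again without overlap (log2 fold change -1.07 ± 0.32, edgeR adjusted p = 0.116). Both passed as lower with the DESeq2 Wald test (adjusted p = 0.00497 for Igfbp4 and 0.0279 for Igfbp7) and with limma-voom (0.0072 and 0.0108). In edgeR, Igfbp4 also passed with only the 6 lung libraries (adjusted p = 0.0202), without BM-Ctrl library 1 (0.041) and without BM-AML library 3 (-1.32, 0.0482).

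Igfbp2 had 6.18, 7.995 and 8.03 CPM in Lung-AML, against 83.8, 15.7 and 13.9 CPM in Lung-Ctrl, where library 1 was far above the other controls. The groups did not overlap, yet the log2 fold change of -2.35 ± 1.07 did not pass (edgeR adjusted p = 0.3). Igfbp6 had 210, 273 and 181 CPM in Lung-AML, against 126, 59.3 and 111 CPM in Lung-Ctrl. These were separate too, and not past the test (log2 fold change 1.16 ± 0.92, edgeR adjusted p = 0.641). The share of all genes tested whose libraries were separate between 2 groups was not counted. Separation without a call, here and elsewhere, is therefore a description only.

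Igf2 had 56, 24 and 44 counts in Lung-AML libraries, against 9, 19 and 20 counts in Lung-Ctrl libraries. Its CPM values, 1.55, 1.03 and 1.83 in Lung-AML and 0.391, 0.729 and 0.740 in Lung-Ctrl, did not overlap (log2 fold change 1.23 ± 0.62, edgeR adjusted p = 0.361). Igfbp5 had 163, 124 and 128 CPM in Lung-AML, against 212, 101 and 108 CPM in Lung-Ctrl (log2 fold change -0.02 ± 0.32, edgeR adjusted p = 0.994). Igf1 had 21.1, 15.3 and 16.4 CPM in Lung-AML, inside the range of 22.7, 6.79 and 41.8 CPM in Lung-Ctrl. Both genes overlapped fully between the groups.

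The receptors overlapped between the lung groups. Igf1r had 15.8, 18.1 and 18.7 CPM in Lung-AML, against 16.5, 16.4 and 11.2 CPM in Lung-Ctrl. Igf2r had 54.5, 48.9 and 75.6 CPM in Lung-AML, against 54.6, 84.7 and 50.6 CPM in Lung-Ctrl. Their log2 fold changes were 0.25 ± 0.44 and -0.09 ± 0.40, and neither passed the edgeR test (adjusted p = 0.89 and 0.97).

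Of the 11 marker lists, the endothelial one had the largest median change in lung, -3.21 on the log2 scale. The 20 pan-endothelial genes summed to 365 to 1387 CPM in Lung-AML and 3760 to 13139 CPM in Lung-Ctrl, with 11 called lower. Of all genes tested, 1.16% were called lower in lung. Cdh5 had a log2 fold change of -3.56 ± 0.74 (edgeR adjusted p = 0.0325, up to 0.159 with 1 library left out). Pecam1, of the same list, was not called (-2.87 ± 0.80, edgeR adjusted p = 0.0919). It was called lower with the DESeq2 Wald test (adjusted p = 0.00432) and limma-voom (0.00555). Lung-Ctrl library 2 held the highest endothelial sum and the lowest fibroblast sum, 3128 CPM. Without it, Igfbp3 remained higher in Lung-AML (log2 fold change 2.72, adjusted p = 0.0174). Pericyte and smooth muscle genes summed to 597 to 954 CPM in Lung-AML and 645 to 2064 CPM in Lung-Ctrl, with none of 12 called. Fibroblast genes summed to 11182 to 22150 CPM in Lung-AML and 3128 to 15031 CPM in Lung-Ctrl, with 1 of 12 called higher. The part of these lists in the IGF family levels was not tested.

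**Figure D3:**
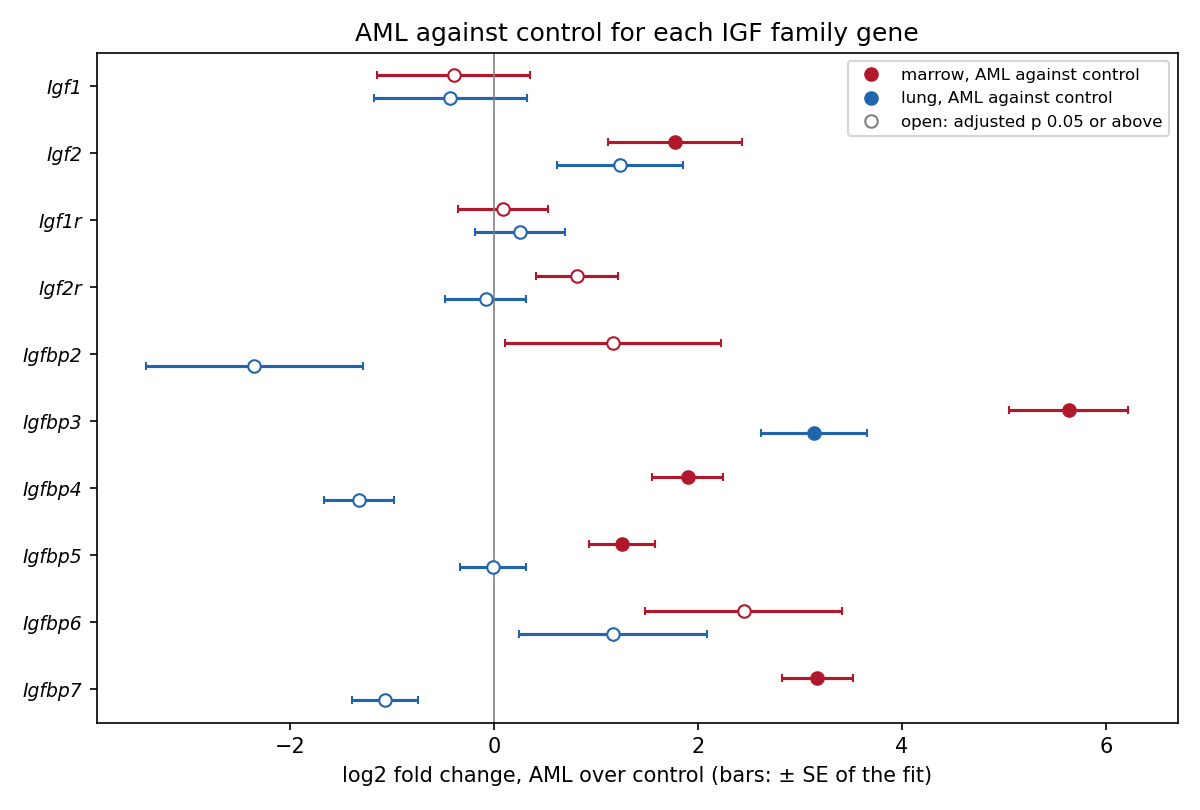
AML effect on each IGF family gene in marrow (red, BM-AML over BM-Ctrl) and lung (blue, Lung-AML over Lung-Ctrl). The horizontal axis gives the log2 fold change, bars are ± 1 SE of the fit, and filled points passed an adjusted p of 0.05. Igfbp4 and Igfbp7 lay on opposite sides of 0 in the 2 tissues, and Igfbp3 was above 0 in both.

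Whether the AML effect differed between tissues was tested directly as an interaction, marrow effect minus lung effect. Of the 10 genes, 3 were called, all with a higher effect in marrow: Igfbp7, Igfbp4 and Igfbp3. Of all genes tested, 14.6% were called higher and 16.1% lower, 30.7% in all, and the median was 1.27 over the 10 genes and -0.09 over all. By count, 2643 genes were higher and 2925 lower, and 3489 and 1757 with library totals alone. Igfbp7 differed by 4.24 ± 0.47 on the log2 scale (edgeR adjusted p = 0.00021) and Igfbp4 by 3.22 ± 0.49 (adjusted p = 0.000877). For these 2 genes the marrow value was above 0 and called, while the lung value was below 0 and not called.

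For Igfbp3 both tissues were higher with AML, and the marrow effect exceeded the lung effect by 2.50 ± 0.69 (edgeR adjusted p = 0.0183). The call for Igfbp3 was lost with limma-voom (2.35, adjusted p = 0.0683) and without a filter on low counts (2.57, adjusted p = 0.0534). Without Lung-Ctrl library 3 the difference was 1.57, still called (edgeR adjusted p = 0.025). Its levels in the untransplanted controls also differed, at 8.92 to 10.04 CPM in BM-Ctrl against 27.4 to 164 CPM in Lung-Ctrl, while the AML groups lay closer, at 381 to 621 CPM in BM-AML against 667 to 835 CPM in Lung-AML. Igfbp5 (1.27 ± 0.46, edgeR adjusted p = 0.0563) and Igfbp2 (3.52 ± 1.497, adjusted p = 0.0996) did not pass. Without BM-AML library 3 they did, at 1.39 (adjusted p = 0.0472) and 4.10 (adjusted p = 0.00676). Igfbp5 also passed without BM-Ctrl library 1 (1.53, adjusted p = 0.0365), without Lung-Ctrl library 2 (1.46, 0.0412), and in 5 alternatives that kept all libraries. The difference for Igfbp6 was 1.28 ± 1.29 with that library and -0.77 without it, past the test in neither case. Igf1, Igf2, Igf1r and Igf2r had differences of 0.03, 0.54, -0.17 and 0.90, none of them called, with SEs of 0.57 to 1.06.

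Between untreated tissues, 4 of the 10 genes were lower in BM-Ctrl than in Lung-Ctrl and 0 were higher. Of all genes tested, 34.7% were called lower and 29.4% higher, 64.2% in all, with medians of -1.28 over the 10 genes and -0.20 over all. Igfbp3 had a log2 difference of -3.18 ± 0.52 (edgeR adjusted p = 3e-04) and Igfbp7 of -1.96 ± 0.33 (adjusted p = 0.000362). For Igfbp2 it was -3.99 ± 1.15 (adjusted p = 0.0104), and -2.71 (adjusted p = 0.0568) without the high Lung-Ctrl library 1. Igf2r had -1.27 ± 0.41 (edgeR adjusted p = 0.0172), and the call was lost without BM-Ctrl library 1, BM-Ctrl library 3 or Lung-Ctrl library 2, with adjusted p up to 0.064. Igfbp4 (-0.42 ± 0.34) and Igfbp5 (0.68 ± 0.32) did not pass. Without BM-Ctrl library 1 Igfbp4 was called lower (-0.92, edgeR adjusted p = 0.0224), and Igfbp5 was called higher without BM-Ctrl library 3 (0.90, 0.039) or Lung-Ctrl library 1 (1.03, 0.0133). Igfbp6 did not overlap between the groups, and its -2.30 ± 0.96 stood at an edgeR adjusted p of 0.0533. It was called lower without BM-Ctrl library 1 (-3.68, adjusted p = 0.0133), without any 1 BM-AML library, and in 5 other alternatives.

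With AML in both tissues, 3 of the 10 genes were higher in BM-AML than in Lung-AML and 0 were lower. Of all genes tested, 22.4% were called higher and 25.2% lower, 47.6% in all. With library totals alone, 5768 genes were higher and 3388 lower, a turn of the balance. The medians were -0.42 over the 10 genes and -0.06 over all. The 3 were Igfbp4 (log2 difference 2.80 ± 0.36, edgeR adjusted p = 0.000127), Igfbp7 (2.28 ± 0.34, adjusted p = 0.000293) and Igfbp5 (1.95 ± 0.33, adjusted p = 0.000725). Igfbp3 was below Lung-AML in every BM-AML library, and its -0.68 ± 0.48 did not pass (edgeR adjusted p = 0.267). Igfbp6 did not pass either (-1.03 ± 0.92, edgeR adjusted p = 0.384), but it was called lower in BM-AML without BM-AML library 3 (-3.09, adjusted p = 0.0079) and with limma-voom (-2.31, adjusted p = 0.0209). The -0.47 ± 1.03 of Igfbp2 (edgeR adjusted p = 0.736) turned to 0.10 without BM-AML library 3, past the test in neither case. This comparison shares its libraries with those above and adds no separate evidence.

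The binding proteins were also summed, and the share of each in the sum was taken, a description added after the values were seen. Their summed level was 1737 ± 525 CPM per kb in BM-AML, 256 ± 104 in BM-Ctrl, 735 ± 103 in Lung-AML and 747 ± 211 in Lung-Ctrl (SD, n = 3 each). The marrow groups did not overlap, at 1294 to 2317 CPM per kb in BM-AML against 181 to 375 in BM-Ctrl, and the lung groups did. Igfbp7 held 65.1% ± 7.87 of the sum in BM-AML and 51.1% ± 7.12 in BM-Ctrl, but 31.9% ± 1.73 in Lung-AML and 66.1% ± 3.81 in Lung-Ctrl.

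In lung, the totals overlapped between the groups and the shares of several binding proteins did not. Igfbp3 held 32.3% ± 2.91 in Lung-AML and 3.30% ± 2.25 in Lung-Ctrl, and Igfbp6 held 27.1% ± 3.80 and 11.7% ± 1.49. Igfbp4 held 4.98% ± 0.58 in Lung-AML and 13.1% ± 3.92 in Lung-Ctrl. In marrow, Igfbp3 held 9.41% ± 5.25 in BM-AML and 1.28% ± 0.45 in BM-Ctrl, Igfbp4 held 14.96% ± 1.76 and 26.3% ± 3.47, and Igfbp5 held 5.67% ± 2.86 and 14.9% ± 2.29. Igfbp4 and Igfbp5 thus took smaller shares in BM-AML although their CPM was higher. Shares are tied to each other, and neither they nor the sums were tested.

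**Figure D4:**
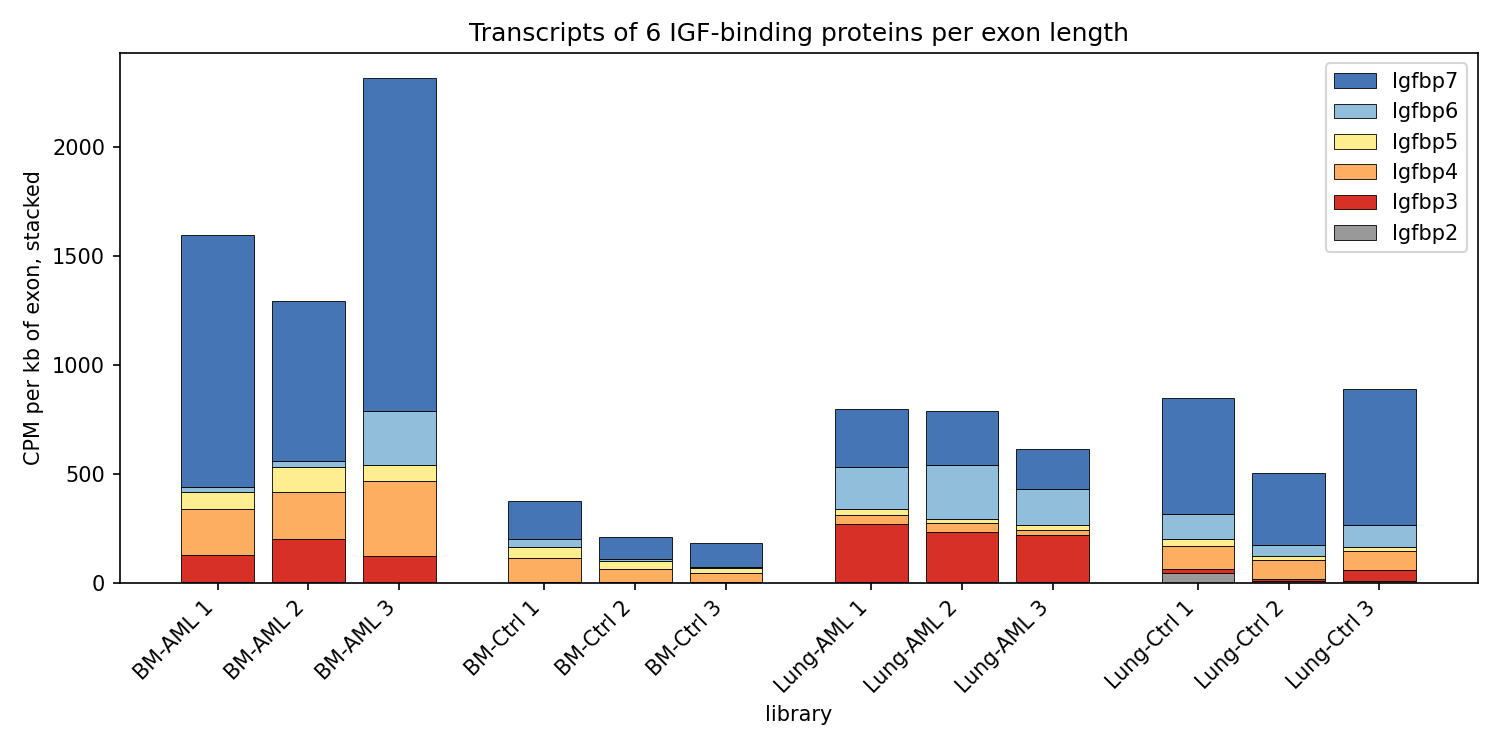
Makeup of the 6 binding protein transcripts per library. The vertical axis stacks TMM-scaled CPM per kb of exon, and each bar is 1 library. BM-AML bars reach 1294 to 2317 CPM per kb against 181 to 375 in BM-Ctrl, and Lung-AML bars hold a larger Igfbp3 part than Lung-Ctrl bars of similar height.

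Other genes that act on IGF signalling were read from a list of 46, of which 39 were tested. In marrow 12 were called higher and 9 lower, 53.8% against 43.8% of all genes tested, with a median log2 fold change of 0.33. Among partners and proteases of the binding proteins, 3 of 8 tested were higher and 1 lower. Pappa, which cuts Igfbp4, had 36.5, 53.5 and 27.1 CPM in BM-AML, against 10.4, 6.43 and 4.19 CPM in BM-Ctrl (log2 fold change 2.47 ± 0.44, edgeR adjusted p = 0.00107). Adam9, a membrane metalloprotease reported to cut Igfbp5, had 80.1, 128 and 53.1 CPM in BM-AML, against 14.6, 11.999 and 13.2 CPM in BM-Ctrl (2.71 ± 0.28, adjusted p = 4.96e-05). Neither gene overlapped between the marrow groups.

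Stc1 encodes an inhibitor of the Pappa protein. It had 4, 0 and 2 counts in BM-AML libraries, against 62, 36 and 63 counts in BM-Ctrl libraries (log2 fold change -4.82 ± 0.86, edgeR adjusted p = 0.00109). Every BM-AML library was near the detection limit and every control above it. Its relative Stc2 did not pass (2.65 ± 1.30, edgeR adjusted p = 0.122). Stc2 had 0, 288 and 327 counts in BM-AML libraries 1, 2 and 3, against 22, 7 and 37 counts in BM-Ctrl libraries. Igfbp1, a binding protein made in liver, had a mean of 0 CPM in both marrow groups and in Lung-Ctrl.

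Receptor adaptors split, with 2 of 8 tested higher and 2 lower in BM-AML, 50% against 43.8% of all genes tested. Irs2, a docking protein of the IGF1 and insulin receptors, had 204, 175 and 325 CPM in BM-AML, against 73.9, 118 and 85.9 CPM in BM-Ctrl (log2 fold change 1.34 ± 0.27, edgeR adjusted p = 0.00228). Grb10, which restrains these receptors, was higher by 1.95 ± 0.21 (adjusted p = 6.34e-05). Shc1, which links receptors to Ras, was lower (-1.15 ± 0.17, adjusted p = 0.000333). Among related receptors, Lrp1, an uptake receptor that also binds Igfbp3, was higher in BM-AML by 1.81 ± 0.46 (edgeR adjusted p = 0.00819). In lung Lrp1 had 372, 394 and 412 CPM in Lung-AML, against 134, 60.8 and 139 CPM in Lung-Ctrl, without overlap but not called. M6pr, the other mannose 6-phosphate receptor, was lower in BM-AML (-0.57 ± 0.12, adjusted p = 0.0026). That call was lost with library totals alone (adjusted p = 0.118) and in the fit of only the 6 marrow libraries (0.0805).

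Of 15 genes of the PI3K, Akt and FoxO chain, 4 were higher and 5 lower in BM-AML, 60% against 43.8% of all genes tested. Foxo1, a transcription factor held out of the nucleus by Akt, had 34.4, 38.3 and 74.6 CPM in BM-AML, against 11.2, 11.7 and 12.6 CPM in BM-Ctrl (log2 fold change 2.05 ± 0.29, edgeR adjusted p = 0.000313). The kinase subunits Pik3cb (-1.69 ± 0.24, adjusted p = 0.00026) and Pik3r1 (-1.11 ± 0.17, adjusted p = 0.000435) were lower. The called genes of the chain thus went both ways in marrow, as did those among all genes tested (20.4% higher and 23.5% lower).

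In lung 3 of the 39 genes were called higher and 0 lower, 7.69% against 2.33% of all genes tested. Pappa had 12.9, 18.5 and 17.5 CPM in Lung-AML, against 4.26, 1.88 and 4.66 CPM in Lung-Ctrl (log2 fold change 2.18 ± 0.44, edgeR adjusted p = 0.0298). Irs2 had 193, 277 and 288 CPM in Lung-AML, against 97.4, 91.1 and 125 CPM in Lung-Ctrl (1.28 ± 0.27, adjusted p = 0.0351). Foxo3, a relative of Foxo1, had 48.7, 46.5 and 42.5 CPM in Lung-AML, against 17.6, 15.6 and 19.5 CPM in Lung-Ctrl (1.39 ± 0.24, adjusted p = 0.017). None of the 3 overlapped between the lung groups. The calls were lost when single libraries were left out. Of the 39 genes, 0 were called without Lung-Ctrl library 1 or 2 or Lung-AML library 1 or 3, and 1 was called without Lung-Ctrl library 3 or Lung-AML library 2. Without Lung-Ctrl library 1 or 2 or Lung-AML library 1 or 3, calls among all genes also fell, to 218, 116, 72 and 83 against 423. With any 1 library left out, the log2 fold changes stayed at 1.87 to 2.41 for Pappa, 1.17 to 1.44 for Irs2 and 1.31 to 1.47 for Foxo3. Other alternatives called 2 to 8 genes.

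Igfbp3, Pappa and Irs2 were each called higher with AML in both tissues, and the lung calls were lost without single libraries as given above. The share of all genes tested that were called higher in both tissues was not counted. The tissue difference was called for 17 of the 39 pathway genes, 9 with the higher effect in marrow and 8 with the lower, 43.6% against 30.7% of all genes tested. Foxo3 went against its lung change in marrow, with 22.0, 10.8 and 16.0 CPM in BM-AML, against 36.0, 32.8 and 37.3 CPM in BM-Ctrl (edgeR adjusted p = 0.00323). Its effects differed by -2.51 ± 0.34 (edgeR adjusted p = 0.000473). Adam9, higher in BM-AML, was not called in lung (0.15 ± 0.26, adjusted p = 0.893), and its effects differed by 2.56 ± 0.38 (adjusted p = 0.000771).

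Igf2bp2 and Igf2bp3 encode proteins that bind Igf2 mRNA among many others. Igf2bp2 had 8.60, 11.6 and 13.2 CPM in BM-AML, against 0.697, 0.201 and 0.539 CPM in BM-Ctrl (log2 fold change 4.52 ± 0.47, edgeR adjusted p = 4.43e-05). In lung it had 12.9, 14.8 and 15.9 CPM in Lung-AML, against 11.4, 7.79 and 10.02 CPM in Lung-Ctrl, and was not called (0.58 ± 0.39, adjusted p = 0.547). The BM-AML libraries overlapped those of both lung groups, and every BM-Ctrl library was below all others. Igf2bp3 rested on fewer reads, 280 counts in BM-AML and 18 in BM-Ctrl (3.56 ± 0.88, edgeR adjusted p = 0.00712).

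H19, the non-coding RNA of the imprinted Igf2 locus, had 6, 143 and 361 counts in BM-AML libraries, against 8, 17 and 0 counts in BM-Ctrl libraries, and was not called in marrow (edgeR adjusted p = 0.0687). BM-AML library 1 was inside the control range. Lung-AML held 2 counts of H19 in all, against 510 in BM-AML, a CPM ratio of 303 with a counting interval of 83.5 to 2511 (95%, counting error only).

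**Figure D5:**
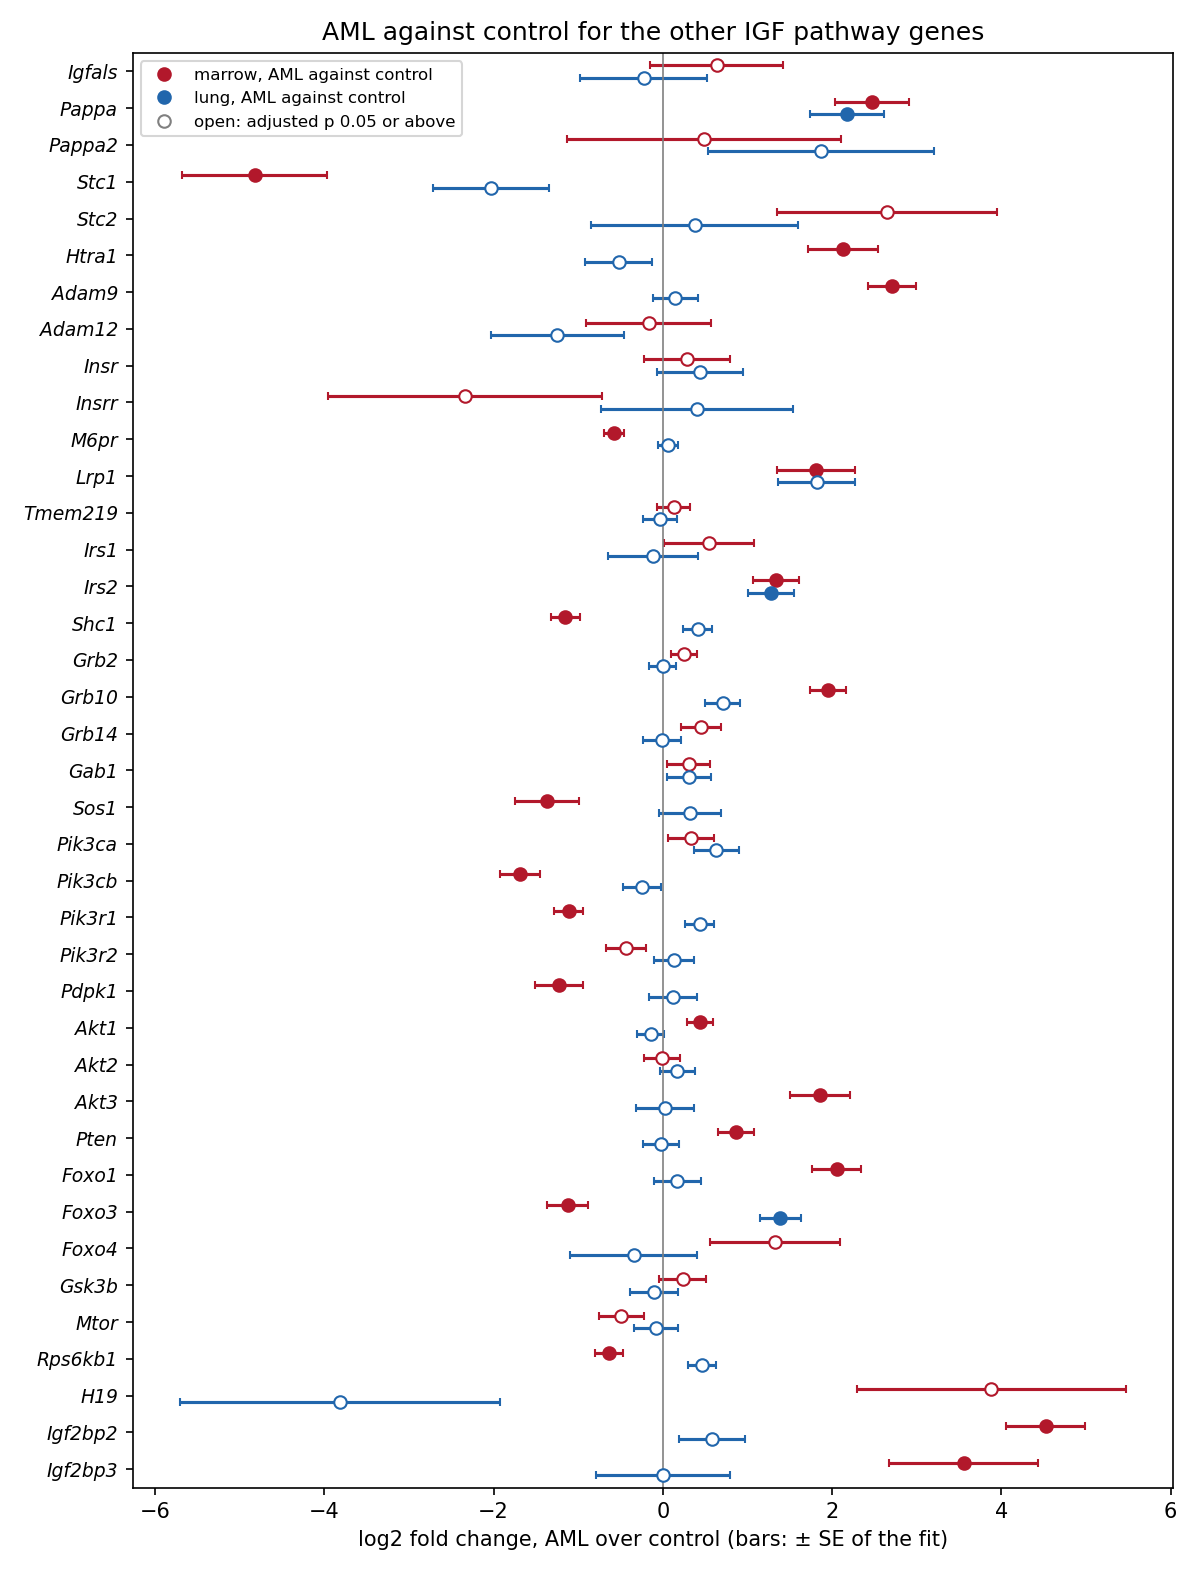
AML effect on the 39 tested genes of the IGF pathway list in marrow (red) and lung (blue). The horizontal axis gives the log2 fold change, AML over control, bars are ± 1 SE of the fit, and filled points passed an adjusted p of 0.05. Pappa and Irs2 were filled in both tissues, and Foxo3 was filled on opposite sides of 0.

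The pathway list also differed between tissues. Between BM-Ctrl and Lung-Ctrl, 6 of 39 were higher and 17 lower, 59% against 64.2% of all genes. Grb14, an adaptor that restrains the insulin receptor, averaged 6.66 CPM in BM-Ctrl and 192 CPM in Lung-Ctrl (log2 difference -4.84 ± 0.27, edgeR adjusted p = 2.85e-07). Between BM-AML and Lung-AML, 4 were higher and 12 lower, 41% against 47.6% of all genes. Adam12, another metalloprotease of binding proteins, averaged 7.34 CPM in BM-AML and 0.438 CPM in Lung-AML (4.02 ± 0.85, edgeR adjusted p = 0.00255).

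Across the 12 libraries, which share groups, scaling and depth, each gene's nearest profiles among 11279 genes are given as a description. For Igfbp3 they were Rgs2, Plpp3 and Tsc22d3 (Pearson r of log2 CPM 0.98 each). For Igfbp7 they were Kcnmb1, Col18a1 and Gnb4 (0.98, 0.98 and 0.97), and for Igfbp4 they were Olfml2a, Msx1 and Dpysl3 (0.96, 0.95 and 0.94). Igfbp5 was nearest to Gpr176, Nrbf2 and Rrp9 (0.97, 0.95 and 0.95), Igfbp6 to Gpnmb, Fxyd6 and Fbh1 (0.96, 0.96 and 0.95) and Igfbp2 to Pih1d2, Edem2 and Clba1 (0.97, 0.96 and 0.96). Igf2r was nearest to Bmf, Usp30 and Zswim8 (0.95, 0.94 and 0.94). Igf2, with a mean under 1 CPM, was not ranked. Igf1 and Igf1r had no profile above 0.90: Lrrc17 was nearest to Igf1 (0.87) and Dnajc27 to Igf1r (0.89). Within the family, the closest pairs were Igf2 with Igfbp3 (0.82), where Igf2 rests on few reads, and Igfbp4 with Igfbp7 (0.82).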

How the data were processed

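RNA of VE-cadherin-positive cells was extracted with the RNeasy Plus Micro Kit and made into libraries with SMART-seq v4 and ThruPLEX-DNA-Seq reagents, per the labels. Per the submitters' processing notes, bcl2fastq and STAR were used with mm10; versions, the counter and its annotation were not given in the sources used here. Deposited files hold raw counts per gene symbol from the authors, with no normalization, and per the file names counting ignored strand. Exon lengths and positions came from GENCODE on GRCm38.

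The test was that of edgeR 4.0.16 (R 4.3.3): filterByExpr by group (minimum count 10, total 15), TMM factors (0.865 to 1.25), and 1 robust quasi-likelihood fit of all 12 libraries by group with 8 residual degrees of freedom. Benjamini-Hochberg adjustment ran over all 18147 genes tested, and "called" means an adjusted p below 0.05. Log2 fold changes carry the SE of the fit, and correlations used log2 CPM with a prior count of 2. Depth of 12.8 to 39.2 M counts limits the precision for genes of few reads, such as Igf2, and counting intervals cover counting error only. The edgeR test of BM-AML against BM-Ctrl was tried on simulated counts. The other comparisons, the alternatives, the shares and the correlations were not checked in this way.

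The 10 members, the pathway and marker lists and the naming rule (all members; up to 3 called genes with the smallest p per pathway list; Cdh5, Pecam1 and Ptprc; the 3 nearest profiles) were chosen with earlier results of these data known. Stc2, Igfbp1, Ins1, Ins2, Insr and genes sharing exons are named outside that rule, after their values were seen, as are some values of named genes in other comparisons. Alternatives were DESeq2 1.42.0 size factors, library totals alone, the DESeq2 Wald test, limma-voom (limma 3.58.1) with quality weights, no filter, 5 CPM in 3 libraries, non-robust dispersion, a fit of only the 6 libraries compared, a replicate block, each library left out, and the longest transcript as length.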

Additional observations from a re-analysis of the deposited data

Results flagged for a closer look

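The AML effect in marrow minus that in lung was tested as an interaction in edgeR. It was called for 30% of the 10 members and 43.6% of the 39 pathway genes, against 30.7% of all genes tested. The 15 genes below are the called members and up to 3 called genes with the smallest p per pathway list. Their number follows from that rule and is not a result. Among the binding proteins, the difference on the log2 scale was 4.24 for Igfbp7 (adjusted p = 0.00021), 3.22 for Igfbp4 (0.000877) and 2.50 for Igfbp3 (0.0183).

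Among proteases of the binding proteins it was 2.56 for Adam9 (edgeR adjusted p = 0.000771) and 2.65 for Htra1, a secreted serine protease (0.00525). Htra1 had 120, 159 and 204 CPM in BM-AML, against 50.2, 28.9 and 30.8 CPM in BM-Ctrl, and 76.7, 49.3 and 36.8 CPM in Lung-AML, against 100, 37.0 and 96.8 CPM in Lung-Ctrl. For the receptor M6pr the difference was -0.64 (0.0147).

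Among adaptors it was -1.56 for Shc1 (edgeR adjusted p = 0.000834), 1.25 for Grb10 (0.00835) and -1.70 for Sos1, a Ras activator (0.0306). In the PI3K and FoxO chain it was -2.51 for Foxo3 (0.000473), -1.55 for Pik3r1 (0.000937) and 1.88 for Foxo1 (0.00524).

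For the RNA-binding proteins it was 3.94 for Igf2bp2 (edgeR adjusted p = 0.000752) and 3.56 for Igf2bp3 (0.0376). The fitted difference for H19 was 7.70 (0.0347), which depends on the prior count because Lung-AML held 2 counts. The calls for H19, Igf2bp3 and Sos1 were lost when 1 of several libraries was left out, with adjusted p of up to 0.093, 0.0916 and 0.0809. M6pr lost its call with library totals alone (-0.24, adjusted p = 0.339), with no filter on low counts (-0.59, 0.0818), with 5 CPM in 3 libraries (-0.44, 0.0514) and without Lung-AML library 2 (-0.52, 0.0782). Sos1 also lost it with library totals (-1.30, 0.0833), H19 with limma-voom (adjusted p = 0.122) and Igf2bp3 with no filter (3.61, 0.0646).

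Marker lists for pericytes and smooth muscle had the same kind of difference, 10 of 12 genes called with the higher effect in marrow and a median of 4.64 on the log2 scale. Of all genes tested, 14.6% were called with the higher effect in marrow. Their part in the differences above was not tested.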

How the results depend on the processing

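Of the members' recomputed log2 values, 933 kept direction and side of the threshold, 42 came to pass it, 22 no longer did and 37 changed sign, none of the last past the test. Igfbp3, Igfbp4, Igfbp5 and Igfbp7 stayed called as higher in BM-AML under all 21 alternatives, and the interactions of Igfbp4 and Igfbp7 under all 20. Genes called in lung numbered 1606 with the DESeq2 Wald test, 2282 with limma-voom, 1239 with only the 6 libraries and 72 to 761 with 1 library left out, against 423; members called numbered 3, 3, 2 and 0 to 2, against 1. Members called in the interaction numbered 5 with the DESeq2 Wald test and 3 to 5 with 1 library left out, against 3. With 5 CPM in 3 libraries, 3750 genes were higher and 2833 lower in BM-AML, against 3694 and 4263. With library totals alone the median of all genes moved to 0.16 in marrow, 0.30 in the interaction and 0.35 between BM-AML and Lung-AML. Of the 40 levels of a member in a group, 0 moved by more than 1 SD with DESeq2 size factors, 1 with library totals and 9 with the longest transcript as length, and the group with the highest level was the same for 10, 9 and 10 members.

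Sign changes of values near 0 were, with limma-voom, -0.37 for Igf1r in marrow, 0.10 for Igfbp5 in lung and -0.33 for Igf1 in the interaction. With library totals they were 0.22 for Igf1r in the interaction, and 0.36 for Igf1r and 0.032 for Igf2r between BM-AML and Lung-AML. With 5 CPM in 3 libraries they were 0.012 for Igfbp5 in lung, 0.035 for Igf1r in the interaction and 0.15 for Igf1r between BM-AML and Lung-AML. With no filter it was -0.0057 for Igf1r between BM-Ctrl and Lung-Ctrl. With 1 library left out, values that changed sign lay as follows. In marrow, the ranges were -0.83 to 0.28 for Igf1 and -0.52 to 0.43 for Igf1r. In lung, the ranges were -0.87 to 0.26 for Igf1, -0.29 to 0.18 for Igf2r and -0.21 to 0.39 for Igfbp5. In the interaction, the ranges were -0.14 to 1.80 for Cdh5, -0.66 to 0.71 for Igf1, -0.78 to 0.18 for Igf1r and -0.77 to 2.64 for Igfbp6. Between BM-Ctrl and Lung-Ctrl, the ranges were -1.37 to 0.0042 for Igf1 and -0.20 to 0.39 for Igf1r. Between BM-AML and Lung-AML, the ranges were -0.66 to 0.29 for Igf1r and -0.93 to 0.10 for Igfbp2. The causes were not tested.

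Among libraries with equal replicate numbers, 3 of 18 correlations of deviations from the group means were over 0.1, and the range was -0.162 to 0.183. Pairs with different numbers were not compared, so whether equal numbers mark a shared mouse or batch was not settled. With a replicate block, 4 members were called in marrow (Igf2 had an adjusted p of 0.0802), 1 in lung, 4 in the interaction, 5 between BM-Ctrl and Lung-Ctrl and 3 between BM-AML and Lung-AML, and Igfbp5 in lung had a log2 fold change of 0.037.

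Low depth limits Igf2 (2 to 56 counts per library).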

Other observations

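Insulin transcripts were near absent. Ins1 had a mean of 0 CPM in all 4 groups, and Ins2 averaged 0.0145 CPM in Lung-Ctrl and 0 CPM in the other groups. Insr, the insulin receptor, was present at 24.9 CPM in BM-AML, 20.4 in BM-Ctrl, 32.8 in Lung-AML and 24.1 in Lung-Ctrl, and was called in neither tissue (edgeR adjusted p = 0.683 in marrow and 0.792 in lung). Insrr, an orphan relative of that receptor, had 2 counts in BM-AML and 252 counts in Lung-AML, a CPM ratio of Lung-AML over BM-AML of 106 with a counting interval of 29.0 to 880.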
